A study of Mus musculus with 6 samples.

Results

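Btg2, Btg1, Lef1, Klf2, S1pr1, Satb1 and Tcf7 are 7 mouse genes tied to the naive and resting state of T cells, and their RNA was read in CD4+CD25+ regulatory T cells (Treg) labelled as deleted for the histone acetyltransferase p300 and in controls. A probe set was counted as a gene's own when the platform annotation gave that gene as its only symbol. By this rule 6 of the 7 genes were measured, by 10 of the 22690 probe sets, and they are 6 of 12393 measured genes. The annotation lists 0 probe sets under the symbol Tcf7, and Tcf7 is therefore not analysed here. It also lists 0 under Ep300, the gene of p300, so the deletion itself was not checked on these arrays and the groups are named by their labels. By its label the p300-deleted group (3 arrays, genotype fl-p300/Foxp3cre) carried a floxed p300 allele and a Cre recombinase driven from Foxp3. The control group (3 arrays, genotype Foxp3cre) is labelled with Foxp3cre and without the floxed allele, although its sample titles read WT. Whether the Cre allele was the same in both groups is not stated. All mice were C57Bl/6, and the cells were separated magnetically. The labels give no age, sex or number of animals per sample. The study's title places the comparison in work on p300 and the function of Foxp3+ Treg.

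A naive T cell keeps itself small, undivided and in circulation through a shared set of regulators. The HMG-box factors TCF1 (Tcf7) and LEF1 hold T cell identity and the naive programme, KLF2 drives S1pr1 and other homing genes, S1PR1 lets the cell follow sphingosine 1-phosphate out of lymph nodes, SATB1 organises chromatin, and BTG1 and BTG2 restrain growth by recruiting the CCR4-NOT complex that shortens mRNA tails. In Treg, LEF1 and TCF1 act beside Foxp3, and SATB1 is known for its part in Treg development in the thymus and for being held down by Foxp3 in mature Treg. p300 acetylates histones at enhancers and promoters and is brought to DNA by factors such as CREB.

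The identity of the cells was checked first. Foxp3, the lineage factor of Treg, read 2.57, 3.04 and 3.15 on the log2 scale in p300-deleted arrays, against 9.63, 9.35 and 9.39 in controls. In all 3 p300-deleted arrays this reading was under the lower quartile, so by its 1 probe set Foxp3, a defining marker of the labelled cells, was near background there. Where that probe set lies in the transcript, and how the Foxp3 allele was built in each group, is not stated in the labels. The other defining markers were bright in both groups, with Cd4 at 9.89 ± 0.17 in p300-deleted and 9.21 ± 0.27 in control cells, Ctla4 at 10.93 ± 0.03 in p300-deleted and 10.62 ± 0.25 in control cells, Il2ra, the gene of CD25, at 9.14 ± 0.05 in p300-deleted and 8.89 ± 0.24 in control cells, and Cd3e at 11.54 ± 0.08 in p300-deleted and 11.38 ± 0.16 in control cells (SD, n = 3 each). Cd4, Ctla4 and Il2ra read higher on every p300-deleted array than on any control, as did 10.5% of tested genes, and Cd3e overlapped. The differences were 0.68 for Cd4 (limma adjusted p = 0.0746), 0.30 for Ctla4 (0.287), 0.25 for Il2ra (0.378) and 0.16 for Cd3e (0.529). Array medians lay between 5.38 and 5.46, and all results below compare 3 p300-deleted with 3 control arrays. The 18S ribosomal RNA control probe sets, a technical reading, averaged 7.74, 9.47 and 7.91 in p300-deleted arrays, against 5.68, 6.03 and 8.69 in controls 1, 2 and 3, so control 3 alone among controls lay within the p300-deleted range.

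Of the 6 measured genes, Btg2, Lef1 and Btg1 read higher in p300-deleted Treg on every array and Satb1 read lower on every array, while Klf2 and S1pr1 overlapped. Such separation of the groups was found for 4 of the 6 genes and for 23.7% of the 8675 genes tested, with 3 of the 6 higher (10.5% of tested genes) and 1 lower (13.2%). None of the 6 passed limma's moderated test at an adjusted p under 0.05, a threshold met by 1.72% of tested genes. With the unadjusted p under 0.05 it was 4 of the 6, 3 higher and 1 lower, against 18.1% of tested genes (8.21% higher and 9.89% lower). Only Btg2 had an adjusted p under 0.10, as did 4.6% of tested genes. Of the 10 probe sets, 6 had an unadjusted p under 0.05 and 6 had groups that did not overlap, against 14.4% and 19.5% of all probe sets. The median difference, p300-deleted minus control, was 0.28 on the log2 scale over the 6 genes and -0.03 over all tested genes, and the median size regardless of sign was 0.44 against 0.14. For a gene with several probe sets these figures use the one with the highest mean over all arrays, which was done for all genes alike. The members were chosen with earlier results of these data known, so the contrasts with all tested genes do not measure an enrichment. They were also bright, with 9 of the 10 probe sets above the upper quartile of every array, while RMA shrinks differences between dim readings. In bulk RNA of this kind, fewer cells that express a gene and less RNA per cell cannot be told apart.

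**Figure D1:**
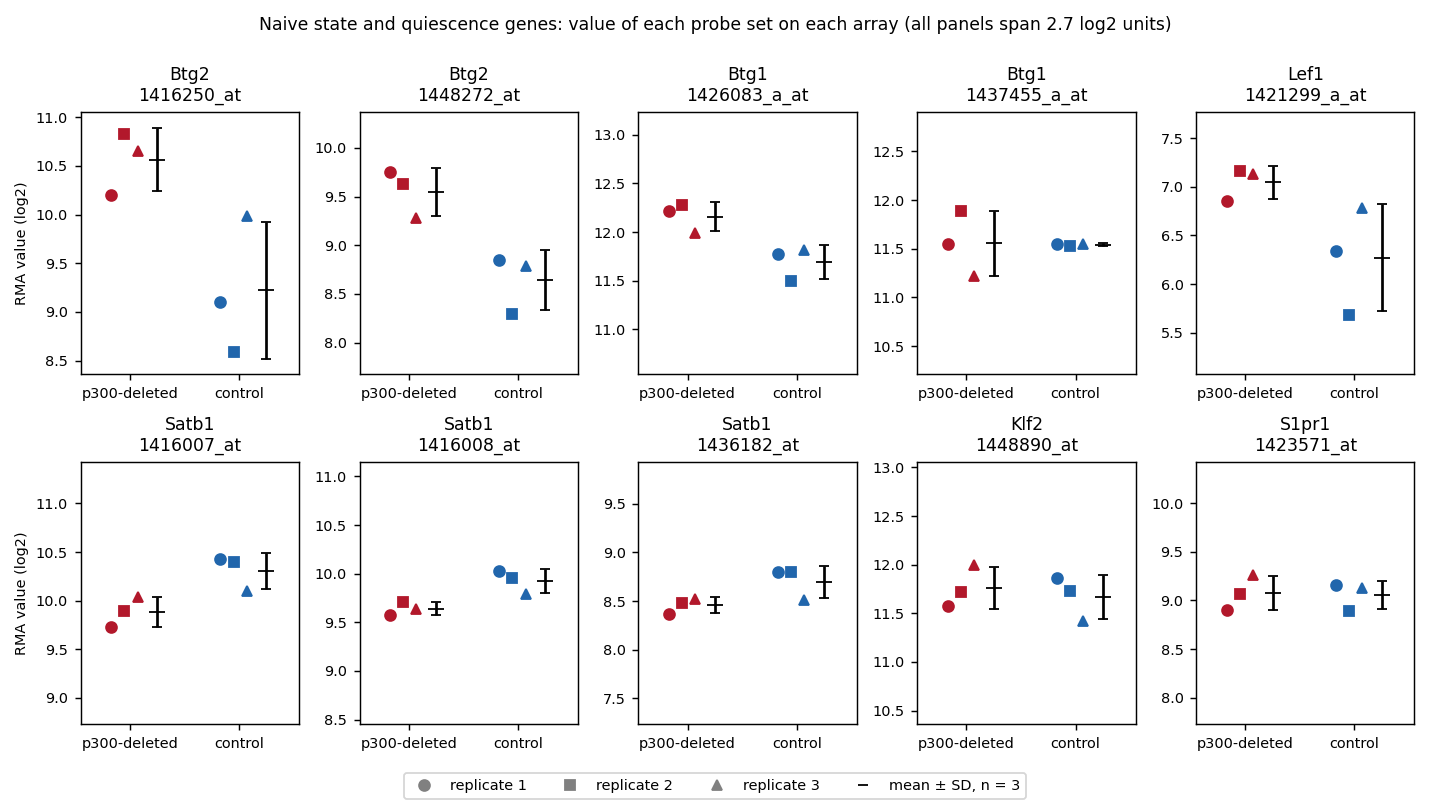
RMA value on the log2 scale (vertical axis) of each of the 10 probe sets on the 3 p300-deleted arrays (red) and the 3 control arrays (blue), with symbols for the replicate number and bars for the mean ± SD. Both Btg2 probe sets and the Lef1 probe set lie higher on all p300-deleted arrays, the first 2 Satb1 probe sets lie lower, and Klf2, S1pr1, the second Btg1 probe set and the third Satb1 probe set overlap.

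Btg2, the anti-proliferative adaptor that is also an immediate early gene and a p53 target, had the largest difference of the 6 genes. Its brighter probe set, 1416250_at, read 10.20, 10.83 and 10.65 in p300-deleted arrays, against 9.10, 8.59 and 9.98 in controls. All p300-deleted arrays were above all controls, but control 3 came within 0.22 of them and the controls spanned 1.40, more than the difference between the group means. The means were 10.56 ± 0.32 in p300-deleted and 9.22 ± 0.71 in control cells (SD, n = 3 each), a difference of 1.34 (SE 0.32, limma adjusted p = 0.081), or 2.53-fold with a 95% interval of 1.53 to 4.19. By size of difference it was number 44 of the 8675 tested genes. A difference of at least 1 in either direction was found for 1.24% of tested genes.

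The second Btg2 probe set, 1448272_at, separated the groups more widely. It read 9.75, 9.63 and 9.28 in p300-deleted arrays, against 8.84, 8.29 and 8.79 in controls. The gap between the lowest p300-deleted and the highest control array was 0.43, and control 3 was not the nearest control here. The difference was 0.91 (SE 0.18), with an adjusted p of 0.0753 in the limma fit over all 22626 non-control probe sets, where 0.455% of probe sets had an adjusted p under 0.05. Both Btg2 probe sets thus point the same way, and neither passed the test as reported.

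The call for Btg2 changed under 2 of 15 alternatives. Without control 3 the brighter probe set was at 1.72 (limma adjusted p = 0.0157), where 2.65% of tested genes passed, and with array weights, which came to 1.20, 1.93 and 1.20 for p300-deleted arrays and 2.40, 0.37 and 0.405 for controls, it was at 1.46 (adjusted p = 0.0081), where 11.7% of tested genes passed. With the 18S value as a covariate it was 0.79 (adjusted p = 0.237).

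Btg1, the paralogue of Btg2, gave different answers in its 2 probe sets. Probe set 1426083_a_at read 12.22, 12.28 and 11.99 in p300-deleted arrays, against 11.77, 11.50 and 11.82 in controls, with no overlap and a gap of 0.17. Its difference was 0.46 (SE 0.13, limma adjusted p = 0.116), or 1.38-fold with a 95% interval of 1.12 to 1.69. Probe set 1437455_a_at read 11.55, 11.89 and 11.22 in p300-deleted arrays, against 11.55, 11.53 and 11.55 in controls. Here the controls spanned only 0.02, the p300-deleted arrays lay on both sides of them, and the difference was 0.01 (SE 0.16, adjusted p = 0.981 over all probe sets). The mean of the 2 probe sets differed by 0.24 (adjusted p = 0.389), so a higher Btg1 level rests on the first probe set. Identifiers ending in _a_at mark probe sets that can bind several transcripts of a gene.

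The promoters of the 2 BTG genes are shown beside that of Klf2 because, of the 5 members searched (Btg2, Btg1, Klf2, Lef1 and Satb1), these are the ones with a match to the cyclic AMP response element (CRE), the DNA element bound by CREB, through which p300 is known to act. Each is the 250 bases before the gene's start, from RefSeq, GRCm38.p6, written 5′ to 3′ on the gene's strand. Btg2 lies on the minus strand at chr1:134079156-134079405, Btg1 on the plus strand at chr10:96616751-96617000 and Klf2 on the plus strand at chr8:72318812-72319061. Capitals mark the CRE core TGACG or its reverse complement CGTCA.
Btg2: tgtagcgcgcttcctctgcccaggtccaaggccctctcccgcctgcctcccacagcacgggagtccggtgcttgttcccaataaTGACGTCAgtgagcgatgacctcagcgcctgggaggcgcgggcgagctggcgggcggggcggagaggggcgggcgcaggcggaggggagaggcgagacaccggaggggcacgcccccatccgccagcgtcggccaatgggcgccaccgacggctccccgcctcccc
Btg1: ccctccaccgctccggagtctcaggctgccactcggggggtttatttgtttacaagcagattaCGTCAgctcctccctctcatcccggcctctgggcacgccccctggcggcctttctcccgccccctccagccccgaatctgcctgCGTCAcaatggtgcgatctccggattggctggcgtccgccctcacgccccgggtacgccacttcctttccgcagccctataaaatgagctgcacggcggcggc
Klf2: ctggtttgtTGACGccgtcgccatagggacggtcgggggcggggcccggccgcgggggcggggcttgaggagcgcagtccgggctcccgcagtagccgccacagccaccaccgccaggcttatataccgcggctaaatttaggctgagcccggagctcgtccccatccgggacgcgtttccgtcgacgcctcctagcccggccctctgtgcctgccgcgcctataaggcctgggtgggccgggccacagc
Btg2 holds a full palindromic CRE, TGACGTCA, starting 166 bases before the start, and the 2 cores counted in it overlap within that element. Btg1 holds 2 single cores, starting 187 and 103 bases before the start, and Klf2 holds 1, at 241 bases. Of 32817 promoter windows of the same length, 1.55% hold the full CRE and 17.7% hold the core on either strand. The CCAAT box (CCAAT, in 33.8% of windows) was matched 2 times in Btg2, 1 time in Btg1 and 0 times in Klf2, and the GC box (GGGCGG, in 32.7% of windows, both strands) 3, 2 and 2 times. The motifs were chosen after the sequences had been seen, and a match describes the letters of the window, not binding. In the windows of Lef1 and Satb1 at the gene's outermost start, 1 GC box in Lef1 was the single match to these letters. S1pr1 and Tcf7 were not searched.

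Lef1, the HMG-box partner of TCF1, was measured by 1 probe set, which read 6.85, 7.16 and 7.13 in p300-deleted arrays, against 6.34, 5.69 and 6.78 in controls. The groups did not overlap, but control 3 lay only 0.07 below the lowest p300-deleted array, and the controls spanned 1.10 against 0.30 in p300-deleted cells. The means were 7.05 ± 0.17 in p300-deleted and 6.27 ± 0.55 in control cells (SD, n = 3 each), a difference of 0.78 (SE 0.25, limma adjusted p = 0.156), or 1.71-fold with a 95% interval of 1.16 to 2.53. It was the dimmest reading of the set relative to its arrays: the other 9 probe sets lay above the upper quartile of every array and that of Lef1 on 0 of 6. The difference was 1.03 without control 3 (adjusted p = 0.0426), 0.49 without control 2 (adjusted p = 0.188), 0.74 with array weights (adjusted p = 0.0236) and 0.44 with the 18S covariate (adjusted p = 0.514).

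Satb1, the chromatin organiser, was lower in p300-deleted cells by all 3 of its probe sets. Probe set 1416007_at read 9.73, 9.89 and 10.04 in p300-deleted arrays, against 10.43, 10.40 and 10.10 in controls, with no overlap and a gap of 0.06. Its difference was -0.42 (SE 0.13, limma adjusted p = 0.153), or 0.747-fold with a 95% interval of 0.605 to 0.921. Probe set 1416008_at read 9.57, 9.71 and 9.64 in p300-deleted arrays, against 10.03, 9.96 and 9.79 in controls, again without overlap, and differed by -0.29 (SE 0.11, adjusted p = 0.278 over all probe sets). Probe set 1436182_at read 8.37, 8.48 and 8.53 in p300-deleted arrays, against 8.80, 8.80 and 8.51 in controls. Here control 3 fell inside the p300-deleted range, and the difference was -0.24 (SE 0.12, adjusted p = 0.403). Of the alternatives run for Satb1, only array weights gave a call, at -0.50 (adjusted p = 0.0266).

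Klf2, the zinc finger factor of quiescence and homing, read 11.57, 11.72 and 11.99 in p300-deleted arrays, against 11.86, 11.73 and 11.42 in controls. The highest and the lowest p300-deleted array lay on both sides of the control mean, and the groups overlapped. The difference was 0.09 (SE 0.15, limma adjusted p = 0.805), and its 95% interval on the fold scale ran from 0.835 to 1.36. S1pr1, a gene that KLF2 is known to drive and the receptor for egress, read 8.90, 9.06 and 9.26 in p300-deleted arrays, against 9.15, 8.89 and 9.13 in controls, again with overlap. Its difference was 0.02 (SE 0.13, adjusted p = 0.967), with an interval of 0.824 to 1.24.

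**Figure D2:**
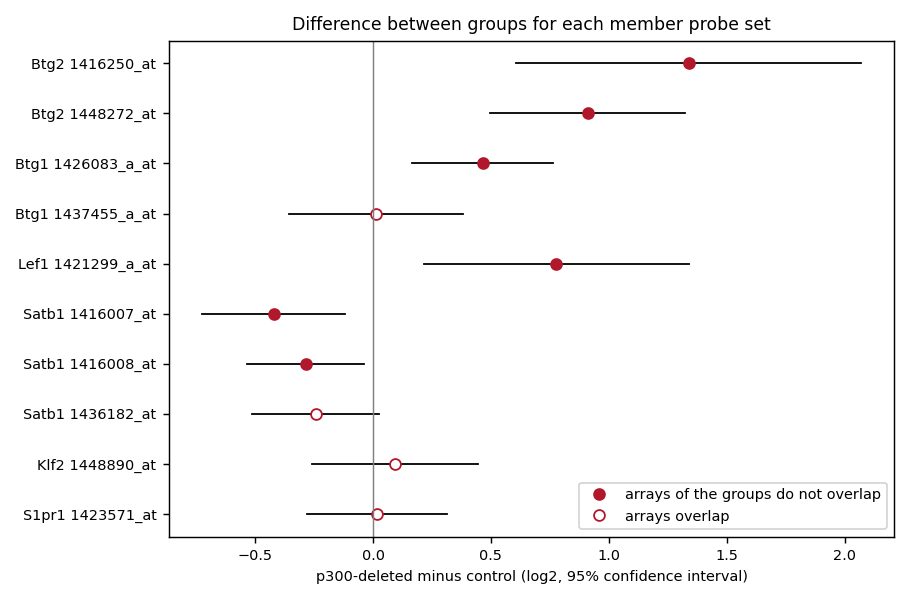
Difference between groups, p300-deleted minus control in log2 units (horizontal axis), for each of the 10 probe sets with its 95% confidence interval from limma, filled where the arrays of the groups do not overlap. The 2 Btg2 probe sets are at 1.34 and 0.91, the 3 of Satb1 at -0.42, -0.29 and -0.24, and the intervals of Klf2, S1pr1, the second Btg1 probe set and the Satb1 probe set at -0.24 include 0.

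In the brightest probe set of each of the 4 genes whose groups did not overlap, control 3 was the control nearest to the p300-deleted arrays. The control farthest from them was control 2 in both Btg genes and in Lef1 and control 1 in Satb1. The Gapdh probe sets for the 3′ and 5′ ends, whose difference reads RNA quality, differed by 0.09, 0.14 and 0.06 in p300-deleted arrays, against 0.23, 0.59 and 0.21 in controls 1, 2 and 3, highest in control 2. The same reading of actin overlapped, at 0.36, 0.43 and 0.29 in p300-deleted arrays, against 0.40, 0.46 and 0.30 in controls. The part of the 18S reading and of RNA quality in these differences was not tested beyond the 18S covariate.

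**Figure D3:**
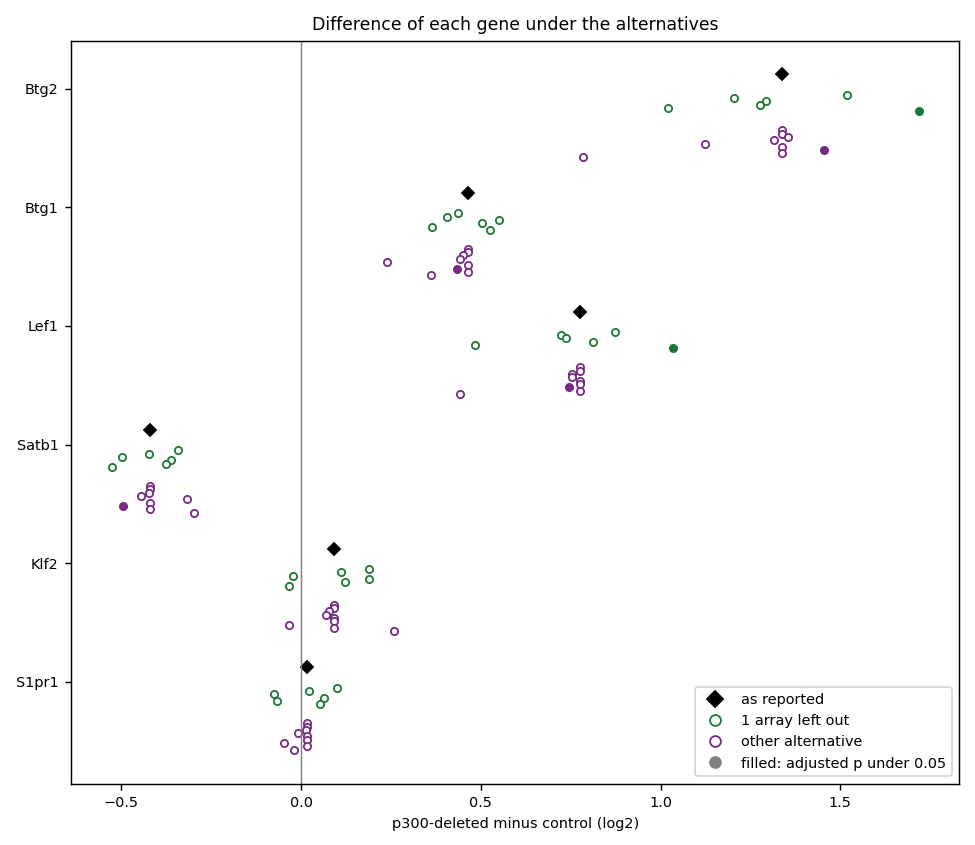
Difference of each of the 6 genes, p300-deleted minus control in log2 units (horizontal axis), as reported (diamond) and under the 15 alternatives, with 1 array left out in green and other settings in purple, filled where the adjusted p was under 0.05. Btg2, Btg1, Lef1 and Satb1 kept their sign under all 15, and Klf2 and S1pr1 lay on both sides of 0.

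The tested genes nearest to each member in their profile were found by the root mean square distance over the 6 arrays after each gene was centred on its own mean. Nearest to Btg2 were Cdkn1b, which encodes the CDK inhibitor p27, at a distance of 0.22 log2 units and Spn, which encodes CD43, at 0.27. Cdkn1b averaged 9.76 ± 0.24 in p300-deleted and 8.42 ± 0.69 in control cells (SD, n = 3 each), with no overlap and a difference of 1.34 (SE 0.30, limma adjusted p = 0.0715), while a second Cdkn1b probe set was at -0.34 and the mean of its probe sets differed by 0.50 (adjusted p = 0.209). Cdkn1b passed without control 3, at 1.63 (adjusted p = 0.0264), and with array weights, at 1.27 (adjusted p = 0.0085). With the 18S covariate Cdkn1b was at 0.92 (adjusted p = 0.265). Nearest to Lef1 were Rpf1, a ribosome production factor (0.15), and Scin, an actin-severing protein (0.16). Rpf1 differed by 0.76, with its second probe set at 0.10. Nearest to Btg1 were Sos2, an exchange factor for Ras (0.04), and Fam114a2 (0.07). Fam114a2 differed by 0.42, with its second probe set at -0.20 and the mean of its probe sets at 0.11 (limma adjusted p = 0.617). Nearest to Satb1 were Pwp2 and Bop1, both of ribosome biogenesis, at 0.02 and 0.03. Nearest to Klf2 were Dhx58, an RNA sensor relative (0.04), and AI837181 (0.05), and nearest to S1pr1 were the histone demethylase Kdm5b (0.04) and the SMAD repressor Ski (0.05). None of these genes passed the test. A small distance is easier to reach for genes that vary little, such as Klf2, S1pr1 and Satb1. Genes picked by this distance resemble the member in their difference between groups by the way they were picked.

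Other genes of the naive programme were read next. For this and the following lists, the shares of all tested genes at an unadjusted p under 0.05 were 8.21% higher and 9.89% lower. The 14 tested naive T cell genes had a median difference of -0.14, and limma called 0 of them (unadjusted p under 0.05 for 2 higher and 3 lower). Klf3, a relative of Klf2 that represses transcription, averaged 8.16 ± 0.29 in p300-deleted and 8.82 ± 0.20 in control cells, a difference of -0.66 (adjusted p = 0.0912), with further probe sets at -0.41 and 0.17 and the mean of its probe sets at -0.30 (adjusted p = 0.35). Id3, an inhibitor of E proteins, was at -0.57 (adjusted p = 0.111). The 13 other quiescence and anti-proliferative genes had a median of 0.10, and limma called 0 (unadjusted p under 0.05 for 3 higher and 1 lower). Beside Cdkn1b, Slfn2, whose loss breaks T cell quiescence in mice, was at 0.59 (SE 0.16, adjusted p = 0.101).

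The partners of the members were tested as well. A list of the CCR4-NOT deadenylase, which BTG1 and BTG2 recruit, and of the PAN deadenylase held 10 tested genes. Of these limma called 0 (unadjusted p under 0.05 for 1 higher and 0 lower) and the median was 0.01. The member with that p was Cnot6l, a catalytic deadenylase, which read 9.48, 9.72 and 9.83 in p300-deleted arrays, against 8.25, 8.27 and 9.61 in controls. Its control 3 lay within the p300-deleted range, and its difference was 0.97 (SE 0.33, adjusted p = 0.179). Its further probe sets were at 1.28, 1.27 and 0.89. Cnot6l passed without control 3, at 1.41 (adjusted p = 0.0055), and with array weights, at 1.26 (adjusted p = 0.0126), and was at 0.39 with the 18S covariate (adjusted p = 0.553). Pabpc1, the poly(A)-binding protein, which was also on this list, was at -0.17. The 17 TCF/LEF partners and relatives had a median of -0.09, and limma called 0 (unadjusted p under 0.05 for 0 higher and 2 lower), with Bcl9l, a beta-catenin cofactor, at -0.61 and Runx3 at -0.35. The 9 tested genes of the sphingosine 1-phosphate axis had a median of -0.07, and limma called 0 (unadjusted p under 0.05 for 0 higher and 1 lower). S1pr4, a second receptor for this lipid on lymphocytes, read 8.91, 8.98 and 9.20 in p300-deleted arrays, against 9.53, 9.59 and 9.38 in controls, without overlap, a difference of -0.47 (SE 0.12, adjusted p = 0.0912). The G-protein subunit Gnai2 was at -0.21.

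Genes of the opposite, activated state were read beside them. Of 16 tested proliferation genes 3 fell and 13 did not pass, with a median of -0.84, and 15 of the 16 had negative values. At an unadjusted p under 0.05, 0 of the 16 were higher and 11 lower. The share of all tested genes that fell was 0.726%, and 9.89% were lower at an unadjusted p under 0.05. Cyclin E1, encoded by Ccne1, read 6.21, 5.86 and 5.95 in p300-deleted arrays, against 6.75, 6.92 and 6.97 in controls, and fell by 0.88 (SE 0.13, limma adjusted p = 0.0223). Aurkb, a kinase of mitosis, fell by 1.38 (SE 0.26, limma adjusted p = 0.0445). Its second probe set was at -1.10 (adjusted p = 0.0774 over all probe sets), and the mean of its probe sets was at -1.24 (adjusted p = 0.0533). Mcm5, a subunit of the replicative helicase, fell by 0.68 (SE 0.13, limma adjusted p = 0.0479). The list's mean per array, centred over all arrays, was -0.16, -0.54 and -0.44 in p300-deleted and 0.25, 0.08 and 0.81 in control cells, so control 3 stood highest here. The 13 activation and effector Treg genes had a median of -0.09, which was 0.03 without p300-deleted 3 and otherwise -0.15 to -0.01 without 1 array, and limma called 0 (unadjusted p under 0.05 for 0 higher and 5 lower). Among them Klrg1, a receptor of differentiated Treg, was at -1.16 (adjusted p = 0.0912) and the chemokine receptor Ccr2 at -1.20 (adjusted p = 0.183), or -0.75 without p300-deleted 2.

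Btg2 also belongs to the immediate early and p53 responses. Of 19 tested immediate early genes 2 rose and 17 did not pass, where 0.991% of tested genes rose. At an unadjusted p under 0.05, 4 were higher and 0 lower, where 8.21% of tested genes were higher. The median of the list was 0.21. That median was 0.08 without control 2, 0.137 without p300-deleted 1 and 0.32 without p300-deleted 3. Jun, a subunit of AP-1, averaged 12.22 ± 0.05 in p300-deleted and 11.27 ± 0.34 in control cells (SD, n = 3 each) and rose by 0.95 (SE 0.16, limma adjusted p = 0.039), with a second probe set at 0.35. Rgs1, which dampens G-protein signals, averaged 11.88 ± 0.10 in p300-deleted and 11.28 ± 0.14 in control cells and rose by 0.60 (SE 0.11, limma adjusted p = 0.0459). Of 13 p53 targets 1 rose and 12 did not pass (unadjusted p under 0.05 for 1 higher and 1 lower), with a median of -0.13. The target that rose was Fas, a death receptor, at 7.57 ± 0.11 in p300-deleted and 6.99 ± 0.11 in control cells. Its rise was 0.58 (SE 0.11, limma adjusted p = 0.0459). These calls were not kept in every fit without 1 array, which also has fewer arrays to test with. Over all tested genes, only 4 rose and 5 fell without control 1. Without 1 array the differences were 0.84 to 1.15 for Jun, 0.53 to 0.67 for Rgs1 and 0.52 to 0.64 for Fas. They were -0.98 to -0.80 for Ccne1, -1.59 to -1.09 for Aurkb and -0.77 to -0.58 for Mcm5. Over all the related lists 3 genes rose and 3 fell, and without control 1, p300-deleted 2 or p300-deleted 3 in turn, limma called 0 in either direction, while 4 rose and 3 fell without control 3.

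**Figure D4:**
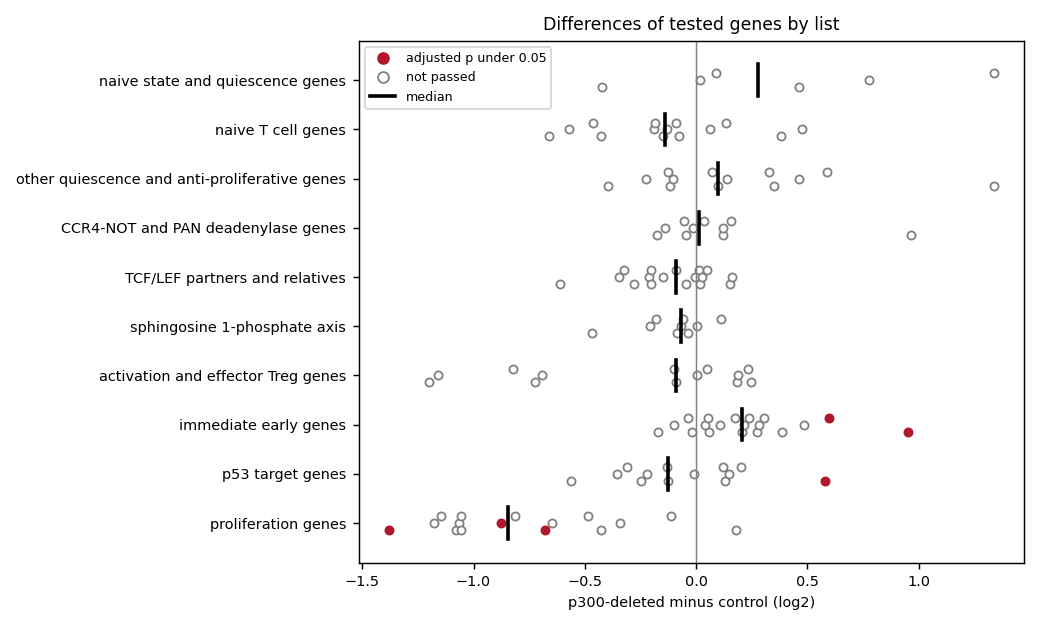
Difference of each tested gene, p300-deleted minus control in log2 units (horizontal axis), by list, with filled points for an adjusted p under 0.05 and a bar for the median. The proliferation genes lie mostly below 0 with a median of -0.84, and the naive T cell genes have a median of -0.14 against 0.28 for the 6 members.

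Markers of some other cell types were higher in p300-deleted arrays, while the mean levels of the B cell and the NK and cytotoxic markers overlapped. Of all tested genes, 0.991% rose and 8.21% were higher at an unadjusted p under 0.05. Of 6 tested plasma cell markers 4 rose, and the mean level of the list was 7.71 to 8.26 in p300-deleted and 6.56 to 6.99 in control arrays. Of 5 tested mast cell and basophil markers 5 rose, with a mean level over the 6 measured of 5.51 to 6.27 in p300-deleted and 4.33 to 4.66 in control arrays. Of 8 tested myeloid markers limma called 0 (unadjusted p under 0.05 for 4, all higher), with a mean level over the 10 measured of 6.82 to 7.93 in p300-deleted and 5.85 to 6.59 in control arrays. Of 7 NK and cytotoxic markers 1 rose (unadjusted p under 0.05 for 3 higher and 1 lower). Their mean level was 7.47 to 8.18 in p300-deleted and 7.36 to 7.66 in control arrays. Of 5 tested B cell markers limma called 0 (unadjusted p under 0.05 for 0; 5.35 to 5.90 over the 8 measured in p300-deleted, 5.76 to 5.92 in control arrays), and of 2 CD8 T cell markers limma called 0 (unadjusted p under 0.05 for 1, higher; 5.36 to 5.55 in p300-deleted, 5.18 to 5.25 in control arrays). The dim markers included Pax5 and Itgam, with means of 3.26 and 2.79 in p300-deleted and 3.31 and 2.73 in control cells. Cd14, a dim myeloid marker, read higher on every p300-deleted array than on any control, with means of 3.93 in p300-deleted and 3.31 in control cells. Ms4a2, a mast cell and basophil marker too dim to be tested, overlapped, with means of 3.15 in p300-deleted and 3.24 in control cells. The 6 members are also expressed outside Treg, Btg1, Btg2 and Klf2 widely and Lef1 and Satb1 in naive T cells, and the part of other cells in their differences was not tested.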

How the data were processed

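The authors deposited RMA values on the log2 scale for 6 arrays, with RMA named per the submitters' processing notes and no version stated. RMA forces the arrays to one distribution, which hides a change in total RNA per cell, and it shrinks differences between dim readings. Groups come from the genotype labels. Nothing in the labels ties each sample to its own animal. The p-values therefore reflect the spread of these samples alone, part of which may be technical, and 3 arrays per group limit the precision.

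The platform annotation gave 1 symbol for 20380 of the non-control probe sets, several for 691 and none for 1555, and gene IDs linked 20351 to RefSeq's GRCm38.p6 table (0 symbols updated). Each of 12393 genes was represented by its brightest probe set over all arrays, and 8675 genes were tested after the dimmest 30% (3718) had been dropped. The 6 measured members all passed this filter. The test was limma's moderated, two-sided test (lmFit, eBayes; limma 3.58.1, R 4.3.3) without covariates, and p-values were adjusted by Benjamini-Hochberg over all 8675 genes. A second limma fit over all 22626 non-control probe sets gave the values of further probe sets. Differences are p300-deleted minus control. The fit was tested on simulated data.

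The members and lists were chosen with earlier results of these data known. Genes were named by rule: the members, up to 4 genes past the test from each list or otherwise the 2 with the largest differences, the 2 nearest profiles to each member, and 5 markers of the label. Other markers named (Pax5, Itgam, Cd14 and Ms4a2) were chosen after their values were seen. Lists are described by counts and medians. Alternatives covered the dim filter, normalization (quantile again, or centring on medians), averaging a gene's probe sets, the variance model, weighting of arrays, blocking on replicate number, an 18S covariate, the threshold and leaving out each array.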

Additional observations from a re-analysis of the deposited data

How the results depend on the processing

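Btg2, Btg1, Lef1 and Satb1 kept their direction under all 15 alternatives, with differences of 0.79 to 1.72, 0.24 to 0.55, 0.44 to 1.03 and -0.53 to -0.30 and adjusted p of 0.0081 to 0.288, 0.0367 to 0.418, 0.0236 to 0.514 and 0.0266 to 0.485. With array weights all 4 passed, at 1.46, 0.43, 0.74 and -0.50, where 465 genes in all were higher and 554 lower. Leaving out 1 array gave 1.02 to 1.72 for Btg2 and 0.49 to 1.03 for Lef1, both passing without control 3. At an adjusted p under 0.10 as the threshold 1 member passed, and in the fit over all probe sets 0 did in limma (6 of 10 probe sets at an unadjusted p under 0.05). The number of members called was 4 with array weights and 0 to 2 without 1 array. Klf2 turned negative with array weights (-0.0345), without p300-deleted 3 (-0.0238) and without control 3 (-0.0338), was at most 0.19 without 1 array and was 0.26 with the 18S covariate. S1pr1 turned negative with median centring (-0.00746), array weights (-0.048), the 18S covariate (-0.0207), without p300-deleted 3 (-0.076) and without control 2 (-0.0678), and was at most 0.10 without 1 array. The second Btg1 probe set turned negative with median centring (-0.00872), the 18S covariate (-0.106) and without p300-deleted 2 (-0.154), and was at most 0.18 without 1 array. Of the nearest profiles, AI837181 was at -0.0959 with array weights and ran from -0.0952 to 0.118 without 1 array. Dhx58 was at -0.022 with the mean of all probe sets and -0.106 with array weights, and ran from -0.0864 to 0.19 without 1 array. Kdm5b was at -0.025 with array weights and ran from -0.0429 to 0.159 without 1 array. Ski was at -0.00121 with median centring, -0.0513 with array weights and -0.0195 with the 18S covariate, and ran from -0.0666 to 0.096 without 1 array. The p53 list's median was 0.12 with the mean of all probe sets and 0.04 with the 18S covariate, against -0.13 as reported. That of the deadenylase list, 0.01 as reported, was -0.01 with median centring, -0.04 with array weights and -0.03 without p300-deleted 3, and that of the other quiescence genes, 0.10 as reported, was -0.04 with array weights. The proliferation list's median was negative and moved by less than 1.5 times under the alternatives run for it. The cause of these changes was not tested.

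Over all genes, 86 were higher and 63 lower as reported. The counts were 47 and 29 with the mean of all probe sets, 10 and 5 with the 18S covariate, and 4 to 139 and 5 to 91 without 1 array. With the replicate number as a block 56 were higher and 42 lower, and 0 members passed. The titles number the arrays but do not say that equal numbers are pairs, so they were not taken as pairs. Deviations from the group means of same-numbered arrays correlated at -0.009, 0.077 and -0.081 across probe sets. Those of differently numbered arrays ran from -0.161 to 0.166. With 3 arrays per group these correlations cannot decide whether the numbers are pairs. Of the related genes 3 were higher and 3 lower. These were 1 and 1 with the mean of all probe sets, 5 and 21 with array weights, 0 and 0 with the 18S covariate, 1 higher with median centring and with the replicate block, and 0 to 4 and 0 to 3 without 1 array. Differences of about 0.1 on the log2 scale lie below the median SE of 0.126 and could not be resolved with 3 arrays per group. Larger ones could be missed too. The simulated sets had 200 changed genes each and noise drawn independently for each gene. In them 32.1% of differences of 0.5 were called in either direction, 83.3% of those of 1 and 98% of those of 2. Of the calls made there, 4.16% were of unchanged genes. Deviations shared by many genes on 1 array were not simulated, so these percentages may not hold for the real arrays. Differences of the size seen for Btg1 and Satb1 could thus often go uncalled.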
